A study of Mus musculus with 4 samples.

Results

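Lysosomal enzymes and membrane proteins were followed as a group of 36 genes, chosen by name as parts of the lysosome, with earlier results of these data known, among 19938 genes measured in ATDC5 cells before and after chondrogenic culture. All 36 had a probe set annotated to that gene alone, and the brightest probe set stood for Arsb, the only member with more than 1. ATDC5 is a single established mouse line of chondrocyte progenitors, which can be driven to lay down cartilage matrix. Undifferentiated cells in DMEM/F12 with serum, L-glutamine and ascorbic acid made up the day 0 group. The day 15 group had Insulin-Transferrin-Selenite added to that medium for 15 days. Each day had 2 samples, numbered replicate 1 and replicate 2, and total RNA of each was hybridised to 1 whole-transcript array. No cells were kept for 15 days without the supplement, so time in culture and the supplement cannot be told apart.

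Lysosomes are acidic organelles in which hydrolases break down proteins, glycosaminoglycans, glycolipids and glycogen delivered by endocytosis and autophagy. Most of these enzymes receive a mannose 6-phosphate tag in the Golgi and are sorted by receptors, and a proton pump in the membrane keeps the interior acidic. In cartilage, chondrocytes take up and degrade the chondroitin, keratan and heparan sulfate chains of their own matrix, and inherited loss of the enzymes that cut these chains causes skeletal disease. Many lysosomal genes carry a short palindromic promoter element of the E-box kind, bound by the transcription factors TFEB, TFE3 and MITF.

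The promoters of several members hold letters of that kind. Those searched were GTCACGTG, not itself a palindrome, and its palindromic core CACGTG. RefSeq promoter windows of build GRCm38.p6, which run from 250 bases before to 50 bases after each transcript start, were found for 31 of the 36 members. Asah1, Ctsb, Ctsh, Galns and Npc1 had no window in the table. The letters GTCACGTG, searched on both strands, were in a window of 8 of the 31 members (25.8%), against 2.55% of 27025 genes with a window and 3.46% of the 15614 of them that were tested. The shorter core CACGTG, which every match of the longer motif contains, was in 11 of the 31 (35.5%), against 8.09% of all genes and 9.5% of tested genes. The element was picked as one known from lysosomal genes and the members as parts of the lysosome, so their higher share is not an independent result. A gene counted if any of its windows matched, and 4 members had several windows. These matches describe the letters only, since binding was not measured. A match of the longer motif is shown for 7 members, read 5′ to 3′ on the gene's strand, with the motif in capitals (CACGTGAC is the motif on the other strand).
Cln3, chr7:126583341-126583370, minus strand: tcacgggtactGTCACGTGacccccaacct
Ctsa, chr2:164833748-164833777, plus strand: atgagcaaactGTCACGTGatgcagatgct
Ctsd, chr7:142387907-142387936, minus strand: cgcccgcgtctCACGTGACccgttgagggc
Glb1, chr9:114401017-114401046, plus strand: gctgcttctgaGTCACGTGgcctacagagg
Lamp1, chr8:13159122-13159151, plus strand: atgccgactggCACGTGACcacatcacgtg
Mcoln1, chr8:3500435-3500464, plus strand: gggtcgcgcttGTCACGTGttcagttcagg
Sgsh, chr11:119355521-119355550, minus strand: ggcctgccgtgCACGTGACcgtggggagcg

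For the remaining gene with the longer motif, Naglu, and for Ctsf, which has the core alone, the 250 bases before the start are shown whole because these genes had the largest differences among those with each motif. The motif of Naglu begins 75 bases before the start and the core of Ctsf begins 79 bases before it.
Naglu, chr11:101069844-101070093, plus strand: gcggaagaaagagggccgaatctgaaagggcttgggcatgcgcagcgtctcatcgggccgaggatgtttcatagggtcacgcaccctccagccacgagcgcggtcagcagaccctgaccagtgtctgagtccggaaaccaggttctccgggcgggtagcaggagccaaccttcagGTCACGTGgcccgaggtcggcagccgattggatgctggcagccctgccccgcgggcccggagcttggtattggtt
Ctsf, chr19:4854915-4855164, plus strand: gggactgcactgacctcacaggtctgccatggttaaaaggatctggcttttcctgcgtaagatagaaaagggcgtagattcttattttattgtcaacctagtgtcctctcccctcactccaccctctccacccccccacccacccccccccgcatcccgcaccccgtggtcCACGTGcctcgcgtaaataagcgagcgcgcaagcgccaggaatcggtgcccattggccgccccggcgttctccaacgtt

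Values below are log2 of the deposited intensity plus 1 after quantile normalization, a difference is day 15 minus day 0 on that scale, and SE is limma's moderated standard error. A gene was called when its limma adjusted p over all genes was below 0.05. The labels do not say whether the 2 samples of a day were separate cultures, so the tests measure the spread between these samples only. All 8 chondrocyte markers, picked after the data were seen, were higher on both day 15 arrays, and 5 of them, Hapln1, Acan, Matn1, Col2a1 and Col11a1, were called. Among all genes, 22.3% had both day 15 arrays above both day 0 arrays and 1.3% were called higher. Both replicate 1 arrays stood apart in macrophage markers. Of 13, 11 were higher in replicate 1 than in replicate 2 on both days, among them C1qb and Csf1r. Ptprc (−0.32 and −0.76 log2 on days 0 and 15) and Adgre1 (−0.25 and −0.16 log2) went the other way. The summed intensity of all 13 was 12030 and 12823 on the replicate 1 arrays against 2609 and 4625 on the replicate 2 arrays. In RNA of whole cultures, fewer cells of a type and less RNA per cell cannot be told apart.

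Nearly all the lysosomal genes read higher at day 15, most of them by less than 1 log2, with Ctsf, Neu1, Ctso and Naglu above that. The difference was above 0 for 34 of 36 members (94.44%) and for 53.15% of all genes. On 31 members (86.1%) both day 15 arrays lay above both day 0 arrays. They did so for 22.3% of all genes and for 23.4% of genes at or above the median intensity. The median member stood at percentile 91.68 of intensity, so neither share is matched to the members' brightness. Ids was the only member with both day 15 arrays below both day 0 arrays, an order seen in 17.8% of all genes. The median difference of the members was 0.46 log2, or 1.38-fold, against 0.02 log2 for all genes. Only Ctsf and Neu1 were called. That is 2 members higher and none lower, beside 1.72% of all genes called, 1.3% higher and 0.411% lower. At an unadjusted p below 0.05, 16 members passed, as did 12.2% of all genes. The typical SE of a member was 0.17 log2, so a difference of the median size lay well below the smallest one called among all genes, 1.04 log2. Neither call held in any of the 4 fits without 1 array, and an intensity trend with robust variances called 4 members.

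**Figure D1:**
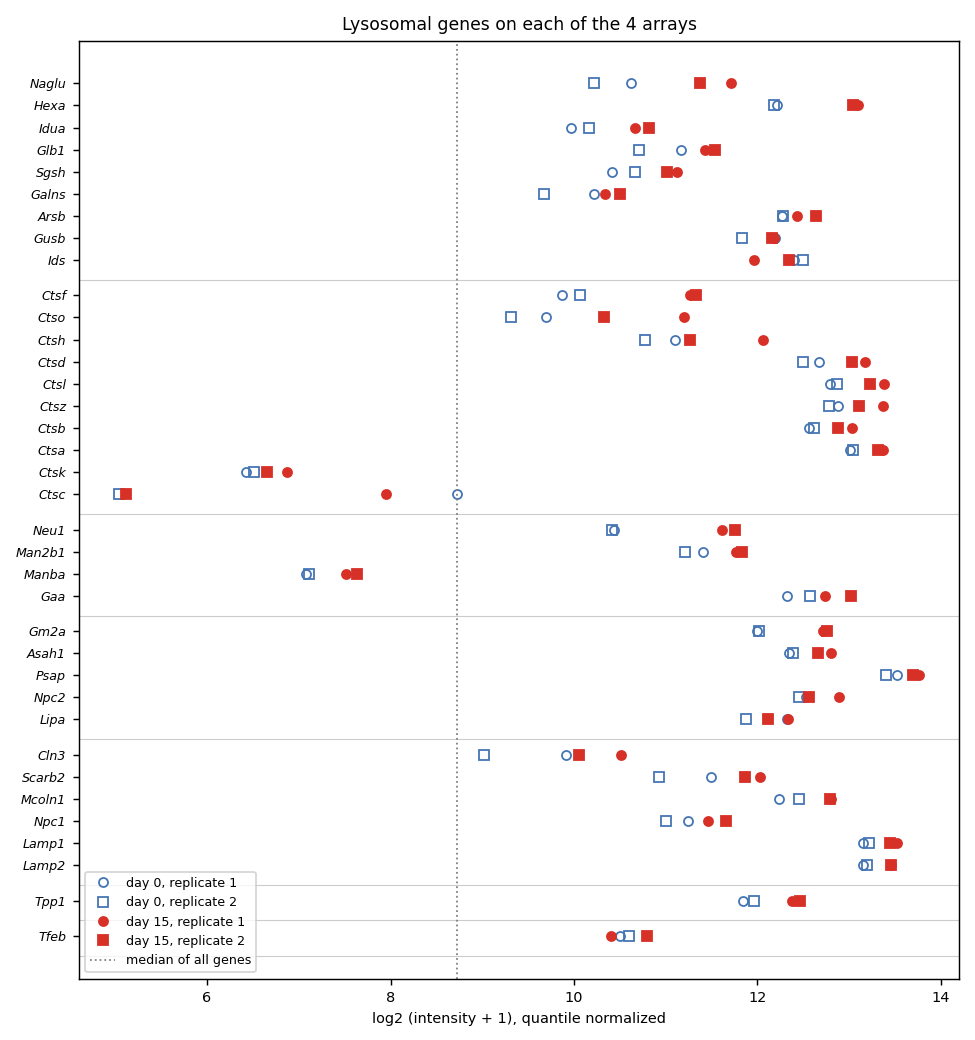
Each row is 1 lysosomal gene and each symbol 1 array, on a log2 axis of intensity plus 1; open blue symbols are day 0, filled red symbols day 15, circles replicate 1 and squares replicate 2, and lines part the role groups. On 31 of 36 rows both red symbols lie to the right of both blue ones, and Ctsc is the row where the replicates, not the days, lie apart.

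The shift was of similar size between the arrays of either replicate number. The median member differed by 0.46 log2 between the replicate 1 arrays of the 2 days and by 0.41 log2 between the replicate 2 arrays. In replicate 2 C1qb and Csf1r were low on both days, at 6.09 and 5.80 for C1qb and 6.71 and 6.49 for Csf1r, but the summed intensity of the 13 macrophage markers went from 2609 to 4625, with Laptm5 2.01, Lyz2 1.51, Cd68 1.15 and Fcer1g 1.07 log2 higher at day 15. The part of these markers in the shift was not tested. Over the 4 ways to set 1 day 15 array against 1 day 0 array the median ran from 0.36 to 0.46 log2. The median was 0.48 log2 on the deposited scaling and 0.43 log2 with each array centred on its median, with 34 of 36 members above 0 in both.

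Enzymes that take glycosaminoglycan chains apart were higher at day 15 in 8 of 9 cases, with a median difference of 0.53 log2, and none was called. Beside these, 53.15% of all genes were above 0 and 1.3% were called higher. Naglu, which removes N-acetylglucosamine from heparan sulfate, read 10.63 and 10.22 at day 0, for replicates 1 and 2 in this order as below, and 11.71 and 11.37 at day 15. The days did not overlap, but the difference, 1.12 ± 0.22 log2 (SE), missed the threshold (adjusted p = 0.0989). Hexa, the alpha subunit of beta-hexosaminidase A, read 12.21 and 12.18 at day 0 and 13.10 and 13.05 at day 15. The arrays of 1 day were at most 0.05 log2 apart, and the difference was 0.88 ± 0.16 log2 (adjusted p = 0.078).

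Idua, the iduronidase of heparan and dermatan sulfate, read 9.97 and 10.16 at day 0 and 10.67 and 10.82 at day 15, a difference of 0.68 ± 0.17 log2 (adjusted p = 0.184). Sgsh, the sulfamidase of heparan sulfate, read 10.41 and 10.67 at day 0 and 11.13 and 11.01 at day 15 (0.53 ± 0.18 log2, adjusted p = 0.307). Glb1, the beta-galactosidase that acts on keratan sulfate and on GM1 ganglioside, read 11.17 and 10.71 at day 0 and 11.43 and 11.54 at day 15 (0.55 ± 0.21 log2, adjusted p = 0.381). In these 3 genes both day 15 arrays were the highest, although the day 0 arrays of Glb1 were 0.46 log2 apart.

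Galns and Arsb, sulfatases of keratan, chondroitin and dermatan sulfate, differed by 0.48 and 0.26 log2, and the second probe set of Arsb gave 0.33 log2. Gusb, the beta-glucuronidase, overlapped between the days, from 11.83 to 12.19 at day 0 and from 12.16 to 12.18 at day 15. Ids, which removes sulfate from iduronate in heparan and dermatan sulfate, went the other way: it read 12.39 and 12.50 at day 0 and 11.96 and 12.34 at day 15. That difference of −0.29 ± 0.20 log2 did not pass (adjusted p = 0.702).

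Cathepsins, the lysosomal peptidases, were higher at day 15 in 9 of the 10 among the members, with a median difference of 0.44 log2 and 1 call. Beside these, 53.15% of all genes were above 0 and 1.3% were called higher. The 4 other cathepsins measured were all below 0, with a median of −0.04 log2 and no call. Ctsf, a cysteine cathepsin, read 9.87 and 10.06 at day 0 and 11.26 and 11.33 at day 15. It rose 2.52-fold (1.33 ± 0.17 log2, adjusted p = 0.0278), the largest difference of all members. The adjusted p was 0.0658 to 0.0993 when 1 array was left out. Ctso, another cysteine cathepsin, read 9.70 and 9.32 at day 0 and 11.20 and 10.33 at day 15, and the gap of 1.26 ± 0.32 log2 between the days did not pass (adjusted p = 0.183). Ctsh, which trims peptides from the amino end, read 11.10 and 10.78 at day 0 and 12.06 and 11.27 at day 15 (0.72 ± 0.30 log2, adjusted p = 0.418). On both days Ctso and Ctsh were higher on the replicate 1 array, by 0.38 and 0.87 log2 for Ctso and by 0.32 and 0.79 log2 for Ctsh. Higher there on both days were also 11 of 13 macrophage markers, 13 of the 36 members and 6805 of 19938 genes. The median gap between the replicates on days 0 and 15 was 2.12 and 1.70 log2 for macrophage markers. For all genes it was 6e-04 and 0.0454 log2. The part of macrophage markers in the levels of Ctso and Ctsh was not tested.

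The bright and broadly expressed cathepsins differed less. Ctsd, the main aspartic protease of lysosomes, read 12.68 and 12.50 at day 0 and 13.18 and 13.03 at day 15 (0.52 ± 0.17 log2, adjusted p = 0.305). The endopeptidase Ctsl, the carboxypeptidases Ctsz and Ctsa and the cysteine protease Ctsb differed by 0.48, 0.41, 0.32 and 0.36 log2 in turn. In all 4 both day 15 arrays lay above both day 0 arrays, an order seen in 22.3% of all genes, and none was called. Ctsk, the collagen-cutting cathepsin best known from osteoclasts, was dim, at 6.42 and 6.51 on day 0 and 6.87 and 6.66 on day 15 (0.30 ± 0.17 log2, adjusted p = 0.621). These values lie below the median intensity of all genes, 8.72, and no detection call was used, so they may be at background.

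Ctsc, the dipeptidyl peptidase that activates granule proteases of leukocytes, was the member in which the replicates lay farthest apart. It read 8.73 and 5.04 at day 0 and 7.95 and 5.12 at day 15, high on both replicate 1 arrays and low on both replicate 2 arrays. Its difference of −0.35 ± 1.38 log2 has an error larger than itself (adjusted p = 0.985). Ctss, a cathepsin of antigen-presenting cells that is not among the 36, behaved alike, at 10.28 and 5.85 on day 0 and 9.90 and 5.87 on day 15. Csf1r, the macrophage growth factor receptor, read 10.31 and 6.71 at day 0 and 10.19 and 6.49 at day 15. Of all genes, 68 (0.341%) exceeded replicate 2 by 1 log2 or more in replicate 1 at day 0 and again at day 15, among them 8 of the 13 macrophage markers and, of the 36 lysosomal genes, Ctsc.

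**Figure D2:**
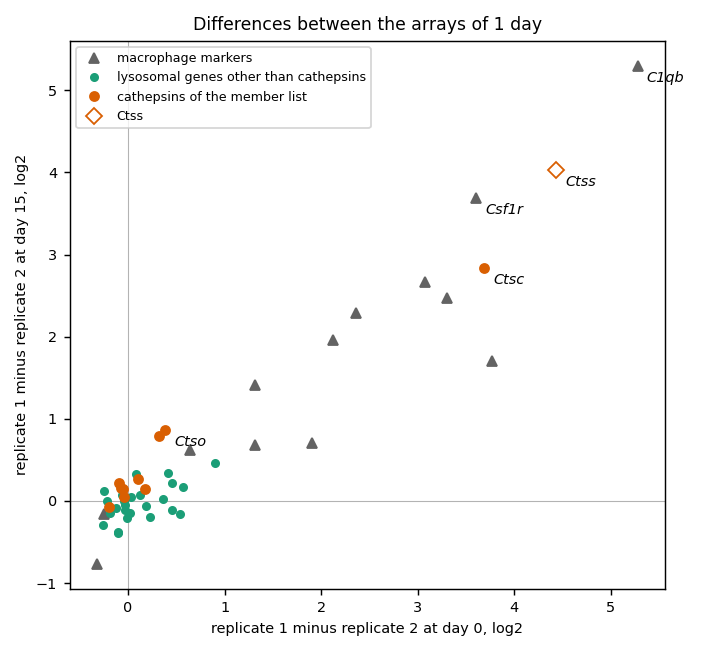
Each point is 1 gene, placed by replicate 1 minus replicate 2 in log2 at day 0 (horizontal) and at day 15 (vertical), with macrophage markers as grey triangles, the 36 lysosomal genes as circles and Ctss as an open diamond. Ctsc, at 3.69 and 2.84 log2, lies among the macrophage markers, and the other lysosomal genes lie within 0.90 log2 of 0 on both axes.

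The glycosaminoglycan enzymes and the cathepsins could not be told apart by the size of their differences. The medians were 0.53 log2 (from −0.29 to 1.12) and 0.44 log2 (from −0.35 to 1.33), and they differed by 0.09 log2. Over the 4 pairs of a day 15 with a day 0 array that gap ran from −0.23 to 0.31 log2 with an SD of 0.24, so its sign depended on the arrays. Between the replicate 1 arrays the enzymes differed by a median of 0.27 log2 and the cathepsins by 0.50, and between the replicate 2 arrays the order was turned, with 0.66 and 0.34 log2. Without day 0 replicate 2 or without day 15 replicate 2 the gap was −0.09 and −0.08 log2.

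**Figure D3:**
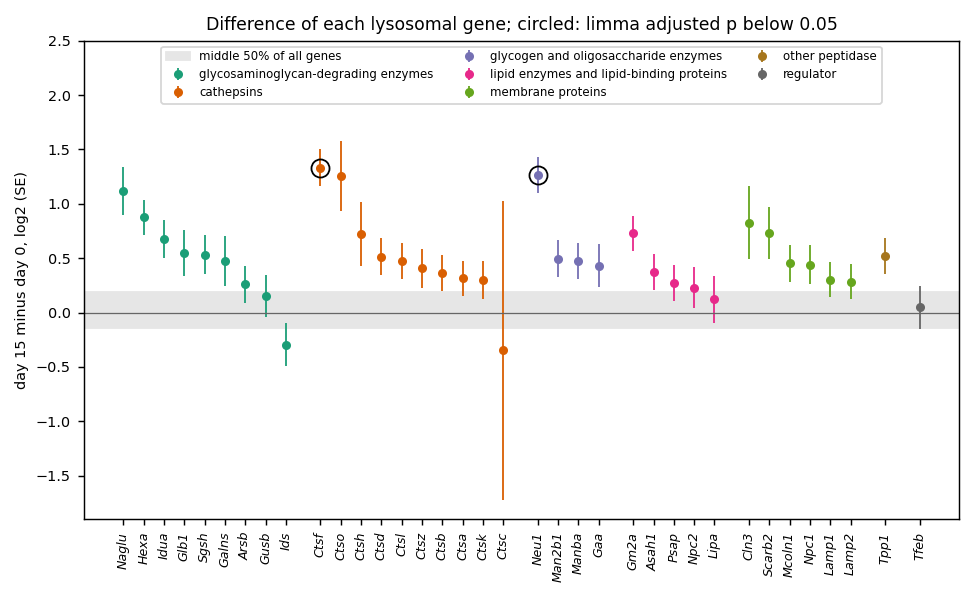
Points are day 15 minus day 0 in log2 with limma's standard error as bars, ordered by size within each role group; the grey band holds the middle 50% of all genes, from −0.14 to 0.19 log2. The 2 called genes, Ctsf and Neu1, are circled, most other points lie above the band, and the long bar belongs to Ctsc.

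Enzymes of glycogen and oligosaccharides all read higher at day 15, with both day 15 arrays above both day 0 arrays, and Neu1 was called. That order was seen in 22.3% of all genes, and 1.3% were called higher. Neu1, the sialidase that works in a complex with Ctsa and Glb1, read 10.43 and 10.41 at day 0 and 11.62 and 11.76 at day 15. It rose 2.40-fold (1.26 ± 0.16 log2, adjusted p = 0.0291), and without 1 array the adjusted p was 0.0891 to 0.108. Its partners in that complex, Glb1 and Ctsa, differed by 0.55 and 0.32 log2 and were not called. The mannosidases Man2b1 and Manba and the glycogen-cutting alpha-glucosidase Gaa differed by 0.49, 0.47 and 0.43 log2, none called, with both day 15 arrays above both day 0 arrays in each. Manba was dim, between 7.08 and 7.63.

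Proteins of lipid breakdown differed by a median of 0.27 log2, with no call. Gm2a, the activator that presents GM2 ganglioside to beta-hexosaminidase A, read 11.99 and 12.02 at day 0 and 12.71 and 12.76 at day 15, so the arrays of each day lay close together and the days were apart. Its difference of 0.73 ± 0.16 log2 did not pass (adjusted p = 0.127). Hexa, the enzyme it serves, differed by 0.88 log2, as given above. The ceramidase Asah1 (0.37 log2), the saposin precursor Psap (0.27) and the cholesterol carrier Npc2 (0.23) each had both day 15 arrays above both day 0 arrays. That order was seen in 22.3% of all genes. The acid lipase Lipa (0.12) overlapped. Tpp1, a peptidase that removes tripeptides from protein ends, read 11.84 and 11.96 at day 0 and 12.38 and 12.46 at day 15 (0.52 ± 0.16 log2, adjusted p = 0.275).

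All 6 membrane proteins read higher on both day 15 arrays, an order seen in 22.3% of all genes. None was called, beside 1.3% of all genes called higher. Cln3, a membrane protein of unsettled function that is lost in juvenile Batten disease, read 9.91 and 9.01 at day 0 and 10.52 and 10.06 at day 15 (0.83 ± 0.34 log2, adjusted p = 0.414). The gap between its day 0 arrays, 0.90 log2, exceeded that difference. Scarb2, the receptor that carries glucocerebrosidase to the lysosome, read 11.50 and 10.93 at day 0 and 12.03 and 11.86 at day 15 (0.73 ± 0.24 log2, adjusted p = 0.282). Mcoln1, the calcium channel, differed by 0.45 log2 and Npc1, the cholesterol transporter, by 0.44. Lamp1 and Lamp2, the abundant glycoproteins of the lysosomal membrane, differed by 0.30 and 0.29 log2, the smallest differences of the group, with arrays of each day within 0.07 log2 of each other.

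The regulator Tfeb differed by less than the spread of its arrays, at 10.51 and 10.61 on day 0 and 10.41 and 10.80 on day 15 (0.05 ± 0.20 log2, adjusted p = 0.985). Its relative Tfe3 was at 12.37 and 12.43 on day 0 and 12.06 and 12.35 on day 15 (−0.20 ± 0.18 log2, adjusted p = 0.824). Mitf, of the same family, was at 9.71 and 9.87 on day 0 and 10.65 and 10.58 on day 15, a difference of 0.82 ± 0.17 log2 that did not pass (adjusted p = 0.105). Rragd, a small GTPase of the nutrient-sensing complex on the lysosome, rose 3.13-fold from 8.14 and 8.45 to 10.11 and 9.76 (adjusted p = 0.0278). Of 10 genes of this regulatory list, Rragd was the only one called. In 6 both day 15 arrays were higher and in 2 both were lower, orders seen in 22.3% and 17.8% of all genes. The 8 members with GTCACGTG had a median difference of 0.52 log2 (from 0.30 to 1.12), and the 23 with a window and without it had one of 0.43 log2 (from −0.35 to 1.33). These ranges overlap. For the core CACGTG the medians were 0.52 log2 in 11 members with it (from 0.30 to 1.33) and 0.35 log2 in 20 without it (from −0.35 to 1.26). Of the called members, Ctsf has the core and Neu1 has neither motif in its window. The part of the motifs in the differences was not tested.

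Other genes tied to the lysosome, outside the 36 and listed by function, were also mostly higher at day 15. They include cathepsin inhibitors, sorting genes and regulators as well as lysosomal enzymes and membrane proteins. Of 77 measured, 62 (80.52%) had a difference above 0, as did 53.15% of all genes. Both day 15 arrays lay above both day 0 arrays in 49 (63.6%) and below them in 4, orders seen in 22.3% and 17.8% of all genes. The median was 0.38 log2. By the adjusted p, 3 of the 77 were called higher and none lower, again beside 1.3% and 0.411% of all genes. All 15 measured subunits and accessory proteins of the proton pump were above 0, with a median of 0.41 log2, both day 15 arrays higher in 13, and no call; Atp6v0b had the largest difference, 0.72 log2. Ctns, which exports cystine from the lysosome, rose 2.24-fold, from 10.68 and 10.88 to 11.99 and 11.89 (adjusted p = 0.0409). Cst6, a secreted cystatin that inhibits cysteine cathepsins, rose 3.59-fold, from 7.02 and 7.61 to 9.45 and 8.88 (adjusted p = 0.0482). The day 0 values of Cst6 and of Rragd lie below the median intensity of all genes and may be near background, in which case these folds are too small. Rragd, given above, was the third. Leaving out 1 array ended the call of Ctns in each of the 4 fits (adjusted p = 0.106 to 0.16), and those of Rragd (0.0507 to 0.1) and Cst6 (0.0605 to 0.149) in each fit except that without day 0 replicate 2; median centring also ended that of Ctns (0.0554).

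Genes that tag and sort the enzymes went in both directions. Sort1, a sorting receptor, read 9.05 and 8.04 at day 0 and 10.09 and 10.65 at day 15 (1.83 ± 0.37 log2, adjusted p = 0.107). Of 8 measured genes, 5 were above 0 and 3 below, with a median of 0.45 log2, and none was called. Both day 15 arrays were higher in 4 of them and lower in 1, orders seen in 22.3% and 17.8% of all genes. Of 5 other genes of glycosaminoglycan breakdown 4 had both day 15 arrays higher and 1 had both lower, and none was called. The sulfatase Arsk differed by 0.84 log2 and Sumf1, which activates sulfatases, by 0.50 log2. The heparanase Hpse differed by 0.95 log2 (adjusted p = 0.0635) and Hgsnat, which acetylates heparan sulfate ends, by 0.18 log2 (adjusted p = 0.826), and the hyaluronidase Hyal2 differed by −0.56 log2 (adjusted p = 0.23). The sialic acid esterase Siae had the largest difference of 16 other hydrolases, 0.94 log2 (adjusted p = 0.174), and 12 of the 16 had both day 15 arrays higher.

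Markers of other cells rich in lysosomes were mostly near or below 0 in their difference between the days. Of 13 macrophage markers 4 were above 0, with a median of −0.11 log2, and of 8 osteoclast markers 2 were above 0, with a median of −0.06 log2. The median SE of the macrophage markers, 0.86 log2, was larger than their median difference. All 8 osteoclast markers averaged below the median intensity of all genes and may be at background. Whether the number of such cells changed was not tested. The osteoclast markers' summed intensity was 1291 and 1399 at day 0 and 1530 and 1343 at day 15. Acp5, the phosphatase that defines osteoclasts, read 7.30 and 7.14 at day 0 and 7.23 and 6.80 at day 15. The exceptions were Cd68, a lysosomal membrane protein of macrophages (1.20 ± 0.59 log2, adjusted p = 0.53), Lyz2, their lysozyme (1.20 ± 0.46, adjusted p = 0.383), Laptm5 (0.97 ± 1.23, adjusted p = 0.897) and Atp6v0d2, a proton pump subunit of osteoclasts and macrophages (2.23 ± 0.55, adjusted p = 0.17), none of which was called. Fcer1g, an Fc receptor subunit, was the fourth macrophage marker above 0 (0.47 ± 0.62, adjusted p = 0.901). Atp6v0d2 read 5.30 and 5.47 at day 0 and 8.52 and 6.72 at day 15, so its day 0 values are dimmer than those of Ctsk and may be at background.

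**Figure D4:**
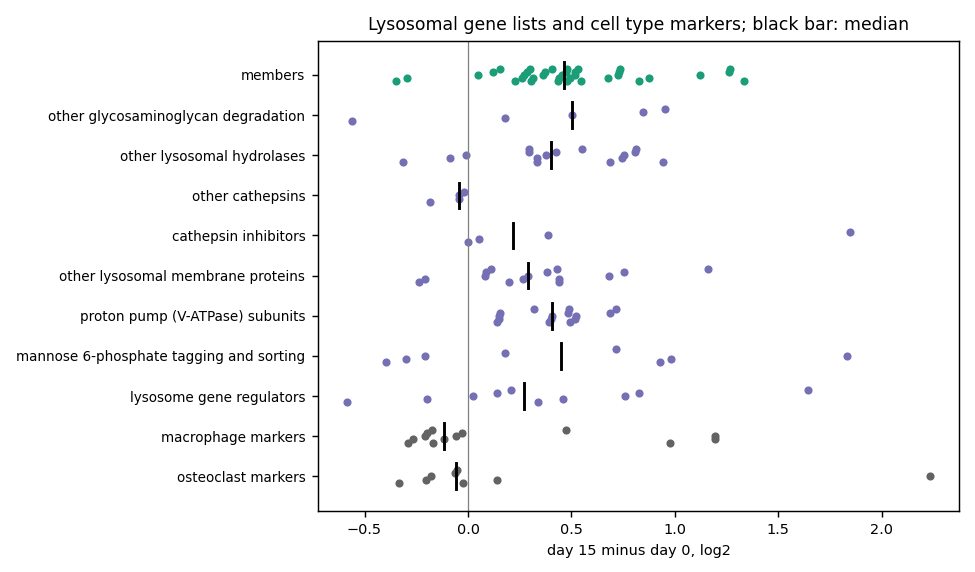
Each point is the difference of 1 gene, day 15 minus day 0 in log2, in the 36 members (green), the other lysosomal lists (violet) and 2 lists of cell type markers (grey), with the median of each list as a black bar. The medians of the members and of the proton pump, 0.46 and 0.41 log2, lie to the right of 0, and those of the other cathepsins, the macrophage and the osteoclast markers lie just below it.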

How the data were processed

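The authors deposited 1 processed intensity per probe set and array on a linear scale, as the values show (0.72 to 23103). How background, probes and arrays were treated before deposit is not given in the sources used here. The genome build was mm9 per the submitters' processing notes, and promoter windows are of GRCm38.p6. Of 35512 probe sets, 21789 had 1 gene symbol in the platform annotation, and the brightest per gene gave 19938 genes. The log2 values after adding 1 were quantile normalized over all probe sets. The days were tested with limma (version 3.58.1, R 4.3.3) by lmFit and eBayes (group as the only term, Benjamini-Hochberg over all genes, two-sided). The same fit was run on simulated arrays with independent normal spread taken from limma's own estimates. That checks the code, not whether these arrays follow such a model. With 2 arrays per day the number of arrays limits the precision. The members, the gene lists and the naming rule were chosen with earlier results of these data known. Values on every array were given for called members, members apart by at least 0.5 log2 between the days, and the largest difference of each role group; of other lysosomal lists the called genes, the largest difference and some genes listed by name were named, not all with every array. The cell type markers other than Acp5, the genes Hyal2, Arsk and Sumf1 and the promoter motifs were picked after the data were seen. Alternatives were the deposited scaling, median centring, an intensity trend with robust variances, a filter at the median intensity, a block for the replicate number, averaging a gene's probe sets, a pseudocount of 16 and leaving out each array. Figures were drawn with matplotlib 3.10.9.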

Additional observations from a re-analysis of the deposited data

How the results depend on the processing

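The 34 of 36 members above 0 at day 15 were also 34 under the deposited scaling, median centring, the trend with robust variances, the replicate block, the mean of probe sets and a pseudocount of 16, and 32 of the 33 at or above the median intensity. Without 1 array they were 32 to 34 of 36. Ctsf and Neu1 were called under each of these settings that kept all arrays. The trend with robust variances called 4 members, adding Hexa and Gm2a. With the replicate number as a block 5 members were called, adding Ctso, Hexa and Naglu, and 628 genes were called in all in place of 342. The differences between replicates 1 and 2 on the 2 days correlated at 0.40 across genes, but the labels do not say that a number marks a shared culture, and 2 pairs are too few to settle it. Leaving out 1 array gave 0 members called and 178 to 284 genes called in all, and 8 to 13 members at an unadjusted limma p below 0.05; such fits take the spread of a day with 1 array from the pair of the other day. The median of the members was then 0.39 to 0.46 log2, that of the glycosaminoglycan enzymes 0.32 to 0.58 and that of the cathepsins 0.31 to 0.57. No detection calls were used, so signal over background is unknown for genes below the median intensity. Among the members these are Ctsc, Ctsk and Manba. Among the others they include the 8 osteoclast markers, such as Acp5 and Atp6v0d2, and, at day 0, Cst6 and Rragd.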
